A study of Mus musculus with 6 samples.

Results

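The genes described here are the matrix metalloproteinases (Mmp), the ADAMTS proteases (a disintegrin and metalloproteinase with thrombospondin motifs) and the tissue inhibitors of metalloproteinases (Timp). They were measured in AML-12 cells, a mouse hepatocyte line established from animals that carry a transforming growth factor alpha transgene. Members were the probe sets whose single annotated symbol starts with Mmp, Adamts or Timp followed directly by a digit, and the brightest probe set stood for each gene. This gave 44 genes (22 Mmp, 18 Adamts and 4 Timp) of 19938 genes with 1 symbol. Both groups were AML-12 cells selected with puromycin after infection with a retrovirus. The siMnSOD cells carried a hairpin meant to silence manganese superoxide dismutase (MnSOD, gene Sod2) weakly, and the siScramble controls carried a scrambled hairpin. Each group had 3 arrays, and the cells for them came from different frozen batches. The titles call them biological replicates without saying whether each came from its own infection, so the p-values measure only the spread between these samples. The comparison asks how gene expression in these hepatocytes differs when MnSOD is lowered.

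Matrix metalloproteinases are zinc-dependent enzymes that are made as inactive proenzymes and cut collagens, proteoglycans and other matrix proteins once the propeptide is removed. ADAMTS enzymes are secreted relatives that act on proteoglycans, procollagens or microfibril proteins. TIMPs bind the active site of these enzymes and block it. In liver, the balance between the proteases and the TIMPs is known for setting how fast scar matrix is deposited and removed.

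Values are normalized array intensities as the authors deposited them, and differences are siMnSOD minus siScramble on the log2 scale. A gene was called when its adjusted p in limma, with Benjamini-Hochberg adjustment over all 21559 tested rows, was under 0.05. Sod2 read 98.8, 121 and 52.3 intensity units on siMnSOD arrays 1, 2 and 3, and 248, 254 and 293 on the siScramble arrays, a log2 difference of −1.63 (SE 0.30, adjusted p = 0.037 in limma). That call was lost with arrays centred on their medians (adjusted p = 0.069) and without siMnSOD replicate 1 or 2 or siScramble replicate 1 or 2 (highest adjusted p 0.133 in limma). Over the tested rows siScramble replicates 1 and 2 correlated at 0.997 (Pearson r on log2 values), but at only 0.978 and 0.979 with siScramble replicate 3. The latter correlated at 0.980 with siMnSOD replicate 3. Of the hepatocyte markers 6 of 9 measured lay above the background level defined in the next paragraph. The keratin genes Krt8 and Krt18, Hnf4a, Apob, Trf and Apoa1 were above it, while albumin (Alb), transthyretin (Ttr) and Ahsg were not. Of these 9 Hnf4a, a liver transcription factor, rose by 1.09 on the log2 scale (SE 0.14, adjusted p = 0.013 in limma), a call lost without siMnSOD replicate 1 or 2 or siScramble replicate 2 (highest adjusted p 0.080). Krt8 had 0.59 (SE 0.17, adjusted p = 0.12 in limma) without overlap between the groups. Of all genes above that background level 5.78% were called and 29.1% did not overlap. The part of these markers in the results was not tested. The summed intensity of the 9 was 15555 to 17950.3 on siMnSOD arrays and 10969 to 14999.5 on siScramble arrays. Krt8 and Krt18 made up most of these sums, with mean log2 levels of 12.75 and 12.42, where the next brightest marker, Trf, had 10.31. Of the macrophage and neutrophil markers 6 of 10 lay at or under background, with summed intensities of 368 to 408 on siMnSOD arrays and 334 to 376 on siScramble arrays. Those above it were Cd14, S100a8, Cd68 and Csf1r. Cd14 (0.26, SE 0.12) and S100a8 (0.69, SE 0.17, adjusted p = 0.089 in limma) were higher without overlap but not called. Cd68 (−0.09, SE 0.18) and Csf1r (−0.27, SE 0.16) overlapped. Of the 10 stellate cell and fibroblast markers 6 lay above background, Col1a1 and Col1a2 among them, and 4 at or under it (summed 224 to 282 and 236 to 279). At or under background were also 5 of 6 endothelial markers (94.6 to 123 and 96.4 to 120). In cultures measured in bulk, fewer cells that express a gene and less RNA per cell cannot be told apart.

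About as many members lay near background as above it. Olfactory receptor genes, which hepatocytes are not known to use, served as the guide: the 95th percentile of the mean log2 level of 1027 such genes was 4.28, or 19.4 intensity units. The mean over the 6 arrays lay above this guide for 21 members and at or under it for the other 23, in both groups. Among the collagenases only Mmp13 was above it, and Mmp1a, Mmp1b and the neutrophil collagenase Mmp8 were not. Of the gelatinases, which cut denatured and basement membrane collagen, Mmp2 was above and Mmp9 was not. Of the stromelysins and their relatives only Mmp11 was above, while Mmp3, Mmp10, the matrilysin Mmp7 and the macrophage elastase Mmp12 were under. The membrane-bound Mmp14, Mmp17 and Mmp24 were above and Mmp16 and Mmp25 were under. Of the others Mmp19, Mmp23 and Mmp28 were above, and Mmp20, Mmp21 and Mmp27 were under. Of the 18 ADAMTS genes 10 were above: Adamts1, Adamts3, Adamts4, Adamts6, Adamts7, Adamts8, Adamts9, Adamts10, Adamts14 and Adamts17. Those under it were Adamts5, Adamts12, Adamts13, Adamts15, Adamts16, Adamts18, Adamts19 and Adamts20. Timp1 and Timp2 were above the guide and Timp3 and Timp4 under it. The members nearest to it were Mmp25 with a mean of 4.20 and Adamts14 with 4.42 on the log2 scale, so genes such as Adamts4, Adamts8, Adamts14, Mmp19 and Mmp23 were only just above. Mmp15 and Adamts2 have no probe set with a single symbol and were not analysed here.

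**Figure D1:**
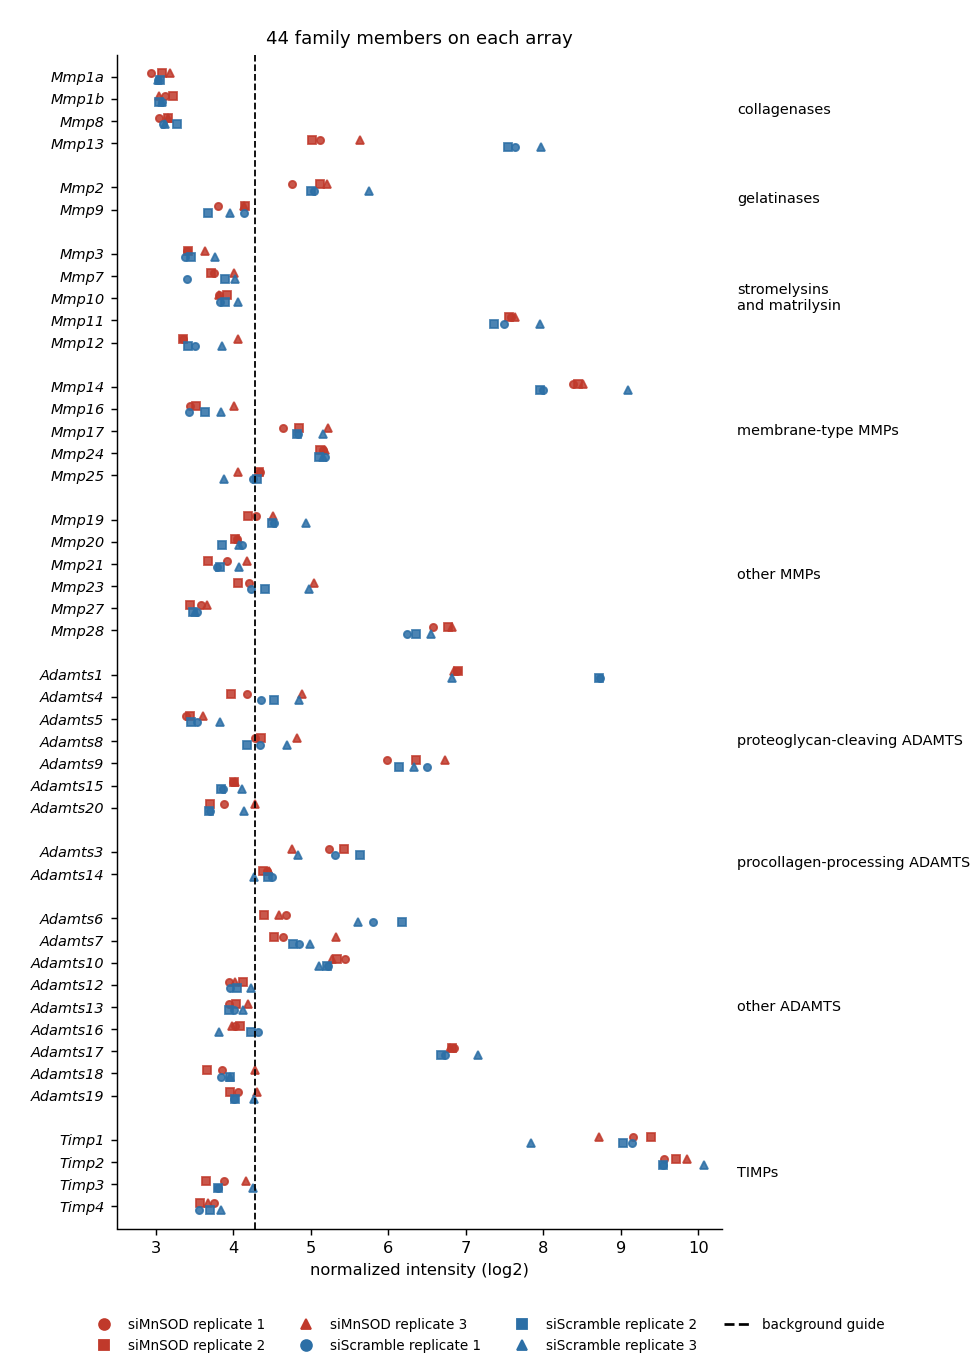
Normalized intensity (log2) of each of the 44 members on each of the 6 arrays, ordered by role, with the background guide at 4.28 as a dashed line. Mmp13 and Adamts6 show siMnSOD arrays well to the left of the siScramble arrays, and 23 members lie around or left of the guide in both groups.

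Of the 44 members 2 fell and none rose. These were Mmp13 and Adamts6, 4.55% of the members, against 3.75% of all 19938 genes called in either direction (1.58% lower and 2.17% higher). At an unadjusted limma p under 0.05 there were 4 members, with Adamts1 also lower and Mmp28 higher, against 16.7% of all genes and 25.1% of those above the guide. All 4 were among the 21 members above the guide. Among all genes above the guide 5.78% were called (2.44% lower), against 2 of the 21 members there. The share of the whole family that was called was near the background share. The median difference of all 44 members was 0.00, as against 0.01 over all genes, and 41 of 44 members differed by less than 0.5 on the log2 scale. The 3 with larger differences were Mmp13, Adamts6 and Adamts1. The groups did not overlap for 4 members (9.09%), compared with 20.9% of all genes. All 4 were above the guide, 19% of the 21 members there, compared with 29.1% of all genes above it. Mmp13 and Adamts6 were lower, and Mmp28 and Adamts10 higher, on every siMnSOD array than on any siScramble array. Over all genes the number of calls moved from 748 to 1424 with the replicate number as a block, while the same 2 members were called. An exact permutation test of 3 against 3 arrays cannot go below p = 0.1, so the calls rest on the limma fit over all rows.

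**Figure D2:**
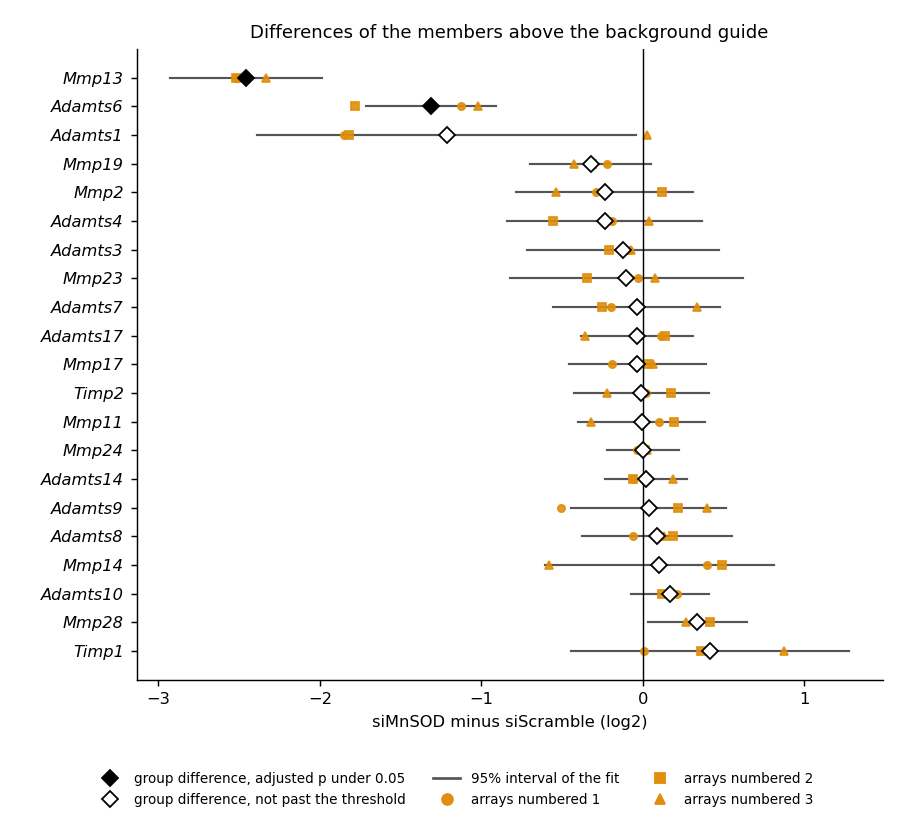
Group difference (siMnSOD minus siScramble, log2) of the 21 members above the background guide, with the 95% interval of the limma fit, and the difference between arrays of the same replicate number. Mmp13 and Adamts6, the filled diamonds, passed the threshold, whereas for Adamts1 the arrays numbered 3 differed by 0.03 and those numbered 1 and 2 by −1.85 and −1.82.

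Mmp13, collagenase 3, which cuts fibrillar collagens, had the largest difference in the family. It read 34.7, 32.5 and 49.7 intensity units on siMnSOD arrays 1, 2 and 3, and 198, 186 and 250 on the siScramble arrays. The highest siMnSOD array thus lay far under the lowest siScramble array, and all 6 were above the background guide of 19.4. The means were 38.9 ± 9.4 (SD, n = 3) and 212 ± 34.1 (SD, n = 3). Mmp13 fell by 2.46 on the log2 scale (SE 0.20, 95% interval −2.93 to −1.99, adjusted p = 0.0036 in limma), which left 18.2% of the control level (from the log2 means). Between arrays of the same number the differences were −2.52, −2.52 and −2.33, so the pair numbered 3 did not stand apart for this gene. The call held under all 15 alternative settings tried, with values from −2.64 to −2.33 and a highest adjusted p of 0.035 in limma.

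The other 3 collagenase genes stayed under background in both groups. Mmp1a and Mmp1b, related interstitial collagenase genes, had log2 means of 3.07 and 3.13 in siMnSOD cells and 3.04 and 3.07 in controls. Mmp8 had 3.12 and 3.16. At this level the arrays give no basis for judging a change.

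**Figure D3:**
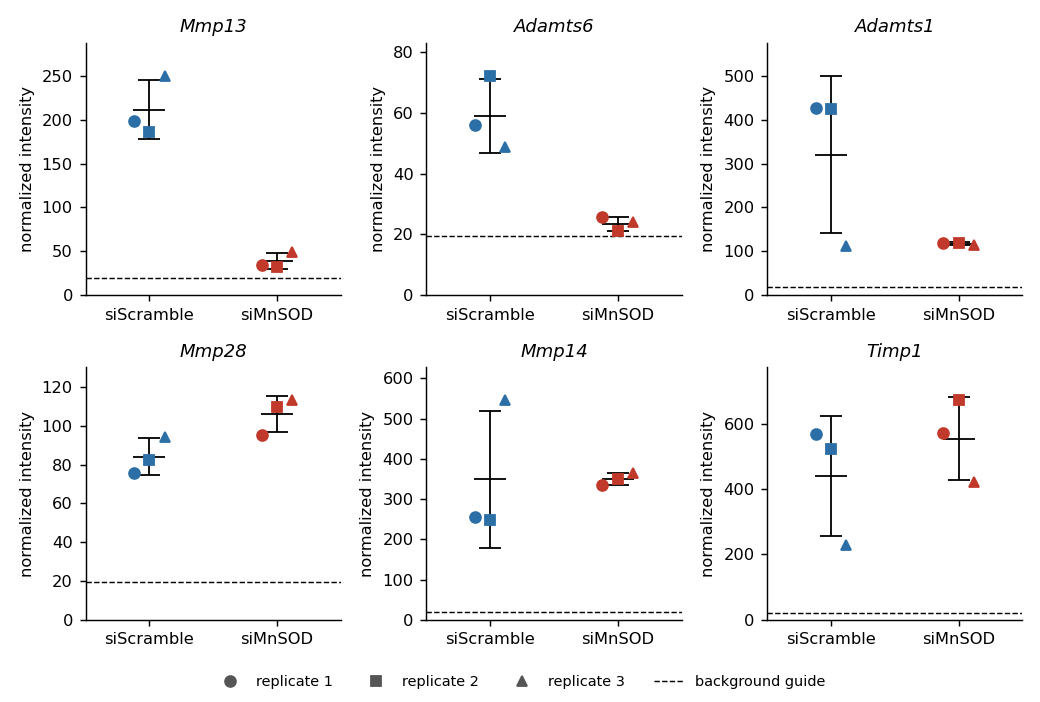
Normalized intensity (linear axis from 0) of 6 members on each array, with the mean and SD of 3 arrays per group as bars and the background guide of 19.4 as a dashed line. Mmp13 and Adamts6 separate on all arrays, while siScramble replicate 3 is the low control for Adamts1 and Timp1 and the high one for Mmp14.

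The promoter of Mmp13 is shown because the gene was the member with the largest change and its letters can be compared with those of its neighbours under background. It holds a match to the AP-1 element TGACTCA, to which FOS and JUN family proteins are known to bind, and to TGTGGTT, a Runx element read here on the other strand as AACCACA, and to TATAAA. Each motif was searched on both strands, and the 3 matches do not overlap. Capitals mark the matches, and the run reaches from 250 bases before to 50 bases from the annotated start (RefSeq, GRCm38.p6, chr9:7272264-7272563, plus strand).
Mmp13: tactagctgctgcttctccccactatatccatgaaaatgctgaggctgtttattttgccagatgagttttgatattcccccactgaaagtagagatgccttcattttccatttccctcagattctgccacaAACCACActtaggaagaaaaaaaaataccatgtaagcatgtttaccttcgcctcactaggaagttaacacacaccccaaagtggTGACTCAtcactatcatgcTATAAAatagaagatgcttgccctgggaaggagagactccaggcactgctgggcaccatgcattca
Its AP-1 match begins 35 bases before the start.

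Mmp13 lies at one end of a cluster of 10 Mmp genes on chromosome 9, and it was the only one of them above background. Along the chromosome the order is Mmp13, Mmp12, Mmp1b, Mmp3, Mmp1a, Mmp10, Mmp8, Mmp27, Mmp20 and Mmp7, with only 3 other annotated genes, noncoding ones or pseudogenes, among them. The other 9 had log2 means over all arrays of 3.05 to 4.03 and differences of −0.08 to 0.06. Only 30 of the 44 members had a promoter sequence to search, and Adamts6, the other called member, was among those without one. The stretch of 30 bases around the AP-1 letters is shown for each searched member that has them. TGACTCA or its reverse complement TGAGTCA is in capitals, on the strand of the gene, all from chromosome 9 of GRCm38.p6.
Mmp13, chr9:7272468-7272497, plus strand: ccccaaagtggTGACTCAtcactatcatgc
Mmp10, chr9:7502268-7502297, plus strand: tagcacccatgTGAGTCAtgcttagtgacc
Mmp7, chr9:7692016-7692045, plus strand: aagtgtgcaaaTGAGTCAcctatttccaca
Mmp12, chr9:7347319-7347348, plus strand: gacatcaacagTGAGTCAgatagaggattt
Mmp3, chr9:7445765-7445794, plus strand: ggaagcaattaTGAGTCAgttttcgggtga
Mmp1b, chr9:7388101-7388130, minus strand: gttacaaagccTGAGTCAtatagcctctgg
Mmp1a, chr9:7464057-7464086, plus strand: gttgtcaaccaTGAGTCAcatagcctctgg
All 7 genes belong to the cluster, and the Mmp12 match lies at the second of its annotated starts. Counting the first listed start of each gene, 6 of 30 members with a promoter sequence held the letters (20%), against 5.17% of 27025 promoters of the same length. Of those 6 only Mmp13 was above the background guide. The Runx letters were found in 2 of the 30 members (Mmp13 and Mmp27) and in 5.37% of all promoters, and TATAAA in 10 of 30 and 14.2%. The members also differed in CG dinucleotides, with a median of 19 per promoter (1 to 44) over 13 members above the guide and 2 (0 to 41) over 17 at or under it. Of those 17, however, 9 were genes of this cluster, with 0 to 4 at their first listed starts. The rest of the 17 had 2 to 41. The median of all promoters was 7. Mmp13, with 1, was the lowest of the 13.

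**Figure D4:**
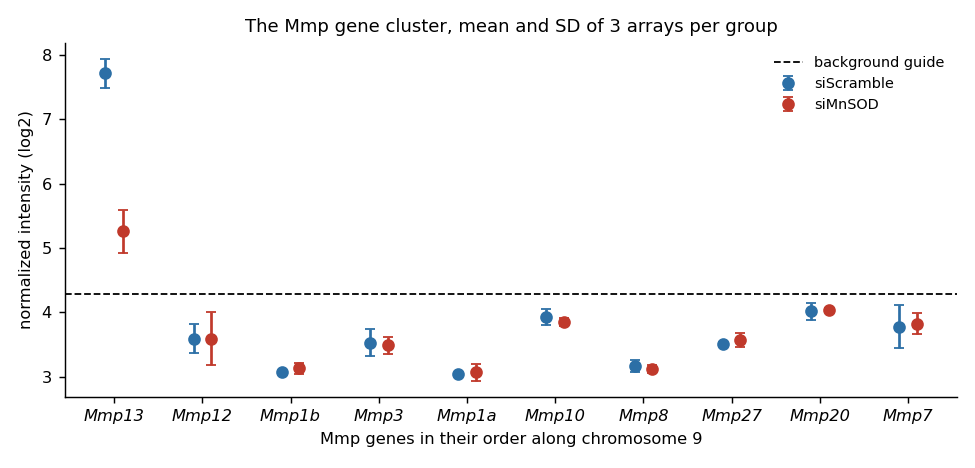
Mean and SD (3 arrays per group) of the normalized intensity (log2) of the 10 Mmp genes of the chromosome 9 cluster in their order along the chromosome, with the background guide dashed. Mmp13 is above the guide in both groups and its neighbours are under it.

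Outside the collagenases no matrix metalloproteinase was called. The gelatinase gene Mmp2 read 27.0, 34.8 and 36.9 on siMnSOD arrays and 32.9, 32.1 and 53.7 on siScramble arrays, which overlap (log2 difference −0.24, SE 0.23, adjusted p = 0.86 in limma). Mmp11, stromelysin 3, which furin activates inside the cell, had 193 ± 5.4 and 198 ± 44.8 (SD, n = 3 each). Its difference was −0.01 with a 95% interval of −0.40 to 0.39.

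Mmp14, the membrane-type protease that activates proMMP-2 on the cell surface, depended on 1 control array. It read 335, 349 and 365 on siMnSOD arrays, and 254, 248 and 545 on siScramble arrays 1, 2 and 3. The siMnSOD values lay above controls 1 and 2 and under control 3, and the difference over all arrays was 0.10 (SE 0.30, adjusted p = 1 in limma). Without siScramble replicate 3 it was 0.48 (SE 0.10, adjusted p = 0.031 in limma), whereas without siScramble replicate 1 or 2 it was −0.07 or −0.09. Mmp17, a glycolipid-anchored member, had a difference of −0.03 (95% interval −0.46 to 0.39). Mmp24 had 0.00 with the narrower interval of −0.22 to 0.22.

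Mmp28, epilysin, an enzyme of epithelia, was a little higher on each siMnSOD array but was not called. It read 95.4, 110 and 113 against 75.5, 82.3 and 94.2, so the lowest siMnSOD array lay just above the highest control. The difference was 0.34 (SE 0.13, 95% interval 0.03 to 0.64, adjusted p = 0.25 in limma), or 0.34, 0.41 and 0.26 between arrays of the same number. Mmp19 was close to background, with 19.7, 18.2 and 22.8 on siMnSOD arrays and 23.0, 22.7 and 30.6 on siScramble arrays. The groups touched, and its difference of −0.32 (SE 0.16) had an adjusted p of 0.41 in limma. Mmp23 had −0.10 (SE 0.30). The 13 Mmp genes under background had no call.

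Adamts6, an ADAMTS gene whose product has been linked to fibrillin microfibrils, was the other member that fell. It read 25.7, 21.0 and 24.0 on siMnSOD arrays and 56.1, 72.3 and 48.6 on siScramble arrays. The siMnSOD arrays sat close together just above the background guide of 19.4, and the controls were all higher and more spread. The means were 23.6 ± 2.3 and 59.0 ± 12.1 (SD, n = 3 each). Adamts6 fell by 1.31 on the log2 scale (SE 0.17, 95% interval −1.71 to −0.91, adjusted p = 0.012 in limma), to 40.3% of the control level, and differed by −1.13, −1.78 and −1.02 between arrays of the same number. The call was lost without siMnSOD replicate 1 (adjusted p = 0.052), siMnSOD replicate 2 (adjusted p = 0.080) or siScramble replicate 1 (adjusted p = 0.059 in limma), with differences of −1.37, −1.23 and −1.34.

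Adamts1, which cleaves versican and aggrecan, differed widely between the groups on the arrays numbered 1 and 2 but not on those numbered 3. It read 118, 120 and 115 intensity units on siMnSOD arrays 1, 2 and 3, and 425, 423 and 113 on siScramble arrays 1, 2 and 3. Controls 1 and 2 were high, and control 3 was lower than every siMnSOD array. The difference over all arrays was −1.22 (SE 0.49, 95% interval −2.39 to −0.04), with an adjusted p of 0.29 in limma. Without siScramble replicate 3 it was −1.85 (SE 0.09, adjusted p = 0.00082 in limma), and with both arrays numbered 3 left out it was −1.84 (SE 0.07, adjusted p = 0.00051). Without siScramble replicate 1 or 2 it was −0.89 or −0.90. Adamts1, Mmp14 and Mmp19 were singled out after their values were seen. The promoter of Adamts1 is shown beside that of Mmp13 because it holds neither the AP-1 nor the Runx letters, only TATAAA, in capitals (RefSeq, GRCm38.p6, chr16:85803064-85803363, minus strand).
Adamts1: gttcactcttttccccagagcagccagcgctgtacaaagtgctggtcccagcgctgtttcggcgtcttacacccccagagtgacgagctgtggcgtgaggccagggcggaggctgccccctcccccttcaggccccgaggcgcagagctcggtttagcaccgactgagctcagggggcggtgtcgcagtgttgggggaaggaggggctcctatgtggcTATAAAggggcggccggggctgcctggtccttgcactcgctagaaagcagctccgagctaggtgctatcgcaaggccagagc
It has 18 CG dinucleotides where that of Mmp13 has 1.

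The other proteoglycan-cleaving enzymes did not separate. At its brightest probe set Adamts9 read 63.5, 81.9 and 106 against 90.3, 70.5 and 80.5, a difference of 0.04 (SE 0.20). Adamts4 (−0.24, SE 0.25) and Adamts8 (0.09, SE 0.20) lay just above background, and Adamts5, Adamts15 and Adamts20 under it. Of the procollagen-processing enzymes, which trim the amino-terminal propeptide, Adamts3 had −0.12 (SE 0.25) and Adamts14 0.02 (SE 0.11). Among the remaining ADAMTS genes Adamts10 read 43.3, 40.3 and 38.7 against 37.4, 37.1 and 34.5. Each siMnSOD array was thus above each control, but the difference of 0.17 (SE 0.10, 95% interval −0.07 to 0.41) had an adjusted p of 0.57 in limma. Adamts17 had −0.04 (95% interval −0.38 to 0.31) and Adamts7 −0.04 (95% interval −0.55 to 0.48). Adamts13, which cleaves von Willebrand factor and is known in liver as a stellate cell product, was under background with 0.03 (SE 0.11).

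For 3 ADAMTS genes the array holds several probe sets. Adamts3 had 16 probe sets, 5 of them above the guide, with differences of −0.25 to 0.15. Adamts9 had 6, of which 5 were above it (−0.33 to 0.04). The brightest of these, used above, had the highest difference, while 4 of the 6 were negative and the median of the 6 was −0.12. The one with the lowest difference had log2 values of 4.43, 4.75 and 4.17 in siMnSOD cells and 5.08, 5.22 and 4.03 in controls. Adamts17 had 5 probe sets, of which 2 were above the guide (−0.12 to 0.02). When all probe sets were tested separately none of these 27 passed in limma (smallest adjusted p 0.26).

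The TIMP genes were not called. Timp2, which both inhibits MMP-2 and helps MMP-14 to activate it, read 755, 842 and 927 on siMnSOD arrays and 745, 745 and 1081 on siScramble arrays. The highest and the lowest of the 6 values were both controls, and the difference was −0.01 (SE 0.18, 95% interval −0.43 to 0.41, adjusted p = 1 in limma). Timp1, a secreted inhibitor that rises in injured liver, read 571, 672 and 422 against 569, 523 and 230. Array 3 was the low one in both groups and more so in the controls, and the difference was 0.41 (SE 0.36, 95% interval −0.45 to 1.28, adjusted p = 0.81 in limma). Timp3, which binds to the matrix and also inhibits ADAMTS enzymes, read 14.8, 12.6 and 17.9 against 14.0, 13.9 and 19.0. Timp4 read 13.5, 11.9 and 12.8 against 11.7, 13.0 and 14.3. Both lay under background on every array, and their differences were −0.05 (SE 0.18) and −0.03 (SE 0.12). Timp1, Timp3 and Timp4 lie within the synapsin genes Syn1, Syn3 and Syn2 in the RefSeq annotation.

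Control replicate 3 gave the highest or the lowest value of the 6 arrays for 11 of the 21 members above background. The share was 52.4%, and over all genes above background it was 49.5%. Which members were called depended on that array and on others. Adamts6 lost its call without siMnSOD replicate 1 or 2 or siScramble replicate 1, while Mmp13 kept its call throughout. Without siScramble replicate 3 the called members were Mmp13, Adamts6 and Adamts1, which were lower, and Mmp14, which was higher. With array weights, which give less weight to arrays that fit the group means less well, the same 4 were called and Mmp28 was also higher (0.35, SE 0.09, adjusted p = 0.023 in limma).

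**Figure D5:**
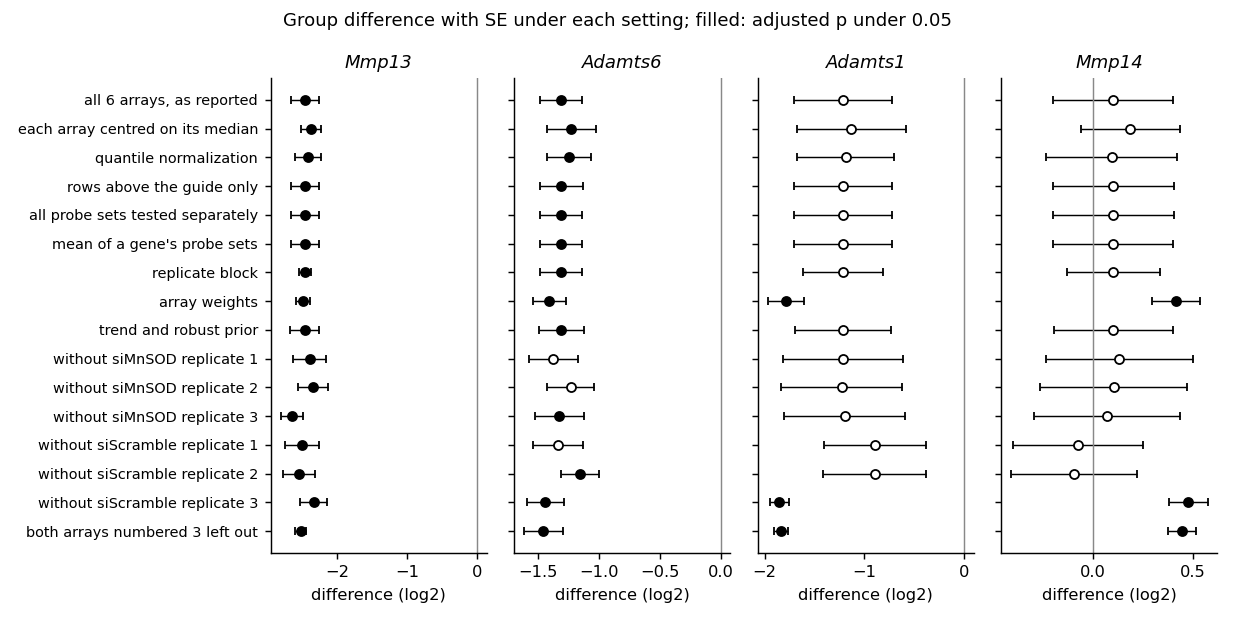
Group difference (log2) with SE of 4 members with all 6 arrays and under 15 alternative settings, filled where the adjusted p in limma was under 0.05. Mmp13 is filled throughout, Adamts6 in 12 of the 15 alternatives, and Adamts1 and Mmp14 only with array weights, without siScramble replicate 3 or with both arrays numbered 3 left out.

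Genes that act together with these proteases were read from lists. The calls in each list stand beside 3.75% of all genes called (1.58% lower). Above the guide 5.78% of all genes were called (2.44% lower). In the plasminogen system, which produces plasmin, an activator of proMMPs, none of 8 measured genes was called (median −0.15). The urokinase receptor gene Plaur had log2 values of 9.65, 9.75 and 9.71 in siMnSOD cells and 10.64, 10.66 and 9.63 in controls, with control 3 again close to the siMnSOD arrays (−0.61, SE 0.28, adjusted p = 0.36 in limma). Of 17 other regulators of metalloproteinase activity 2 fell and none rose (median 0.04). Thbs1 was higher without overlap between the groups but was not called (0.73, SE 0.32, adjusted p = 0.33 in limma). Cd44, a receptor that holds MMPs at the cell surface, fell by 0.71 (SE 0.10, adjusted p = 0.015 in limma), with log2 values of 8.34, 8.25 and 8.23 against 9.02, 8.99 and 8.94. Lcn2, a lipocalin that binds MMP-9, fell by 3.46 (SE 0.40, adjusted p = 0.0093 in limma). Cd44 lost its call with arrays centred on their medians and without siMnSOD replicate 1 or 2 or siScramble replicate 1 or 2 (highest adjusted p 0.095), and Lcn2 without siMnSOD replicate 2 (adjusted p = 0.065 in limma). Of 12 ADAM family genes Adam9 fell by 0.53 (SE 0.10, adjusted p = 0.045 in limma) and none rose. Adam10 and Adam17 had 0.05 (SE 0.11) and 0.06 (SE 0.22). None of 6 ADAMTS-like genes was called, with differences of −0.22 to 0.06.

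The transcription factors of collagenase and stromelysin genes had a median difference of −0.61 over 15 measured genes, beside 0.01 over all genes. Of the 15 factors 1 was called, where 5.78% of all genes above the guide were called (2.44% lower). Jund, an AP-1 subunit, had log2 values of 8.38, 8.38 and 8.65 in siMnSOD cells and 9.11, 9.00 and 9.17 in controls and fell by 0.62 (SE 0.12, adjusted p = 0.044 in limma). For 5 others, named here after their values were seen, the groups did not overlap but the adjusted p missed the threshold. With Jund these made 6 of 15 factors without overlap, all 15 being above the guide, where 29.1% of all genes did not overlap. Fos had −1.43 (SE 0.38, adjusted p = 0.11), Fosl1 −1.73 (SE 0.39, adjusted p = 0.068), Jun −1.74 (SE 0.46, adjusted p = 0.10), Atf3 −2.67 (SE 0.77, adjusted p = 0.13) and Cebpb −0.95 (SE 0.29, adjusted p = 0.14 in limma). Jun had log2 values of 6.40, 6.57 and 6.91 in siMnSOD cells and 8.97, 8.93 and 7.22 in controls. Control 3 was thus much nearer to the siMnSOD arrays than the other controls were, as it was for Adamts1 but not for Mmp13. Between arrays numbered 1, 2 and 3 Atf3 differed by −3.72, −3.76 and −0.52, and Fosl1 by −2.54, −2.15 and −0.48. Fos differed by −1.85, −2.17 and −0.26, with siMnSOD array 3 at 7.16 and siMnSOD arrays 1 and 2 at 5.85 and 5.62. Of 24 matrix substrates 2 fell and none rose (median 0.00), where 3.75% of all genes were called (1.58% lower). They were the fibronectin gene Fn1, at −1.48 (SE 0.23, adjusted p = 0.023), and the laminin chain gene Lamb1, at −1.02 (SE 0.14, adjusted p = 0.017 in limma). Another laminin chain gene, Lamc1, was higher without overlap but was not called (0.56, SE 0.17, adjusted p = 0.14 in limma). The genes of collagen I, Col1a1 and Col1a2, a substrate of MMP-13, had 0.05 (SE 0.12) and 0.02 (SE 0.11). Jund, Adam9 and Fn1 lost their calls without siMnSOD replicate 1 or 2 or siScramble replicate 1 or 2 (highest adjusted p 0.21, 0.21 and 0.12), and Lamb1 without siMnSOD replicate 1 or siScramble replicate 1 or 2 (highest 0.083 in limma). Jund and Adam9 also lost them with median centring, with quantile normalization and with a trend and robust prior, and Lamb1 with median centring.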

How the data were processed

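Total RNA from 6 AML-12 samples was hybridised to 1 Affymetrix Mouse Gene ST array each. For each probe set the authors deposited a normalized intensity, not on a log scale. The submitters' processing notes name RMA, the design text in the labels names MAS5 scaling, and no version is given. The table held 35557 probe sets, of which 21789 had 1 symbol, 1621 several and 12147 none. Symbols were updated through Entrez identifiers in RefSeq (GRCm38.p6), which changed none of the 68 member probe sets. All 44 members matched RefSeq genes and 30 had a promoter sequence there. limma 3.58.1 (R 4.3.3) was run on log2 intensities with group as the only term, through lmFit and eBayes, and no filter on low values was set. Rows with several symbols were tested but not named, and the fit was tested on simulated data. The 15 alternatives changed scaling, filter, probe-set choice, prior, array weights, replicate block or the arrays used. Same-numbered arrays deviated together from their group means (r = 0.30, 0.29 and 0.56 across tested rows). Arrays 1 and 2 correlated more across numbers (0.47 and 0.41), while array 3 of either group correlated negatively with arrays 1 and 2 of the other (−0.51 to −0.40). The 3 deviations of a gene within a group are tied to each other by their shared mean. These correlations therefore cannot decide whether the numbers pair the arrays. The numbers, which both groups carry in their titles, did not enter the main fit and served as a block only in an alternative. The number of arrays limits the precision. Members, lists, the background guide and the rule for named genes (Sod2; called members; members above background without overlap; Timp genes; up to 4 called genes per list) were chosen with earlier results of these data known. Probe sets of related or overlapping genes may share signal, which was not tested.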

Additional observations from a re-analysis of the deposited data

How the results depend on the processing

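The call of Mmp13 held under all 15 alternatives, and that of Adamts6 under 12. The number of called members stayed at 2 with median centring, quantile normalization, a filter at the background guide, all probe sets, the mean of probe sets, the replicate block and a trend and robust prior. It was 5 with array weights, 4 with both arrays numbered 3 left out, and 1 to 4 when single arrays were left out. Over all genes 748 were called, 1424 with the replicate block, 4674 with array weights, 4275 with both arrays numbered 3 left out and 77 to 2238 when single arrays were left out. Higher genes made up 57.8% of these calls and 72.3% with median centring, which moved the median difference of all genes from 0.01 to 0.09. The replicate block changed no call of a named member. The cause of these changes was not tested. Signal over background limits the 23 members at or under the guide.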
